A study of Mus musculus with 4 samples.

Results

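The interleukin 1 family of cytokines and receptors was examined in bulk RNA sequencing of J558 allografts. The 10 genes, a list of names with no measured threshold, were the ligands Il1a, Il1b, Il18 and Il33, the signaling receptor chains Il1r1, Il1rap and Il18r1, the decoy receptor Il1r2 and the soluble inhibitors Il1rn and Il18bp, out of 24421 genes in the count tables. J558 is a mouse plasmacytoma line, grown here under the skin of female BALB/c mice, so every tumor held J558 cells of 1 line together with cells of an immune-competent host. Mice were given 0.5% methylcellulose (Vehicle-1 and Vehicle-2) or TAK-931, an oral inhibitor of the replication kinase CDC7, at 60 mg/kg once a day, and tumors were taken at day 6 (n = 2 per group). The study's methods give the age of its mice as 4 weeks. Where values of a pair stand together, replicate 1 comes first.

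IL-1α and IL-1β are separate gene products that act through the same receptor, in which IL-1R1 binds the ligand and the accessory chain IL-1RAP completes the signaling complex. IL-1β and IL-18 are made as inactive precursors that caspase-1 cleaves in inflammasomes, whereas IL-1α and IL-33 act as alarmins released from damaged cells. The system carries its own brakes: the antagonist encoded by Il1rn occupies IL-1R1 without signaling, IL-1R2 captures IL-1 as a decoy, and the IL-18 binding protein neutralizes IL-18, a cytokine known for driving interferon-gamma production in T and NK cells.

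Library depth was between 16487902 and 19589339 counts. The treated pair differed far more than the vehicle pair, with an r of 0.865 against 0.977 across genes (genes are not independent replicates), and TAK-931-2 lay nearer to the vehicle libraries (0.950 and 0.939) than to TAK-931-1. Values are therefore given per library, and the fits of the 10 genes also with TAK-931-1 left out. Cells of the line are labelled B lymphocytes, and the 8 plasma cell and J558 markers were detected in all 4 libraries. They summed to 9717 and 10286 CPM in the vehicle and to 4801 and 13646 CPM in the TAK-931 libraries. CPM denotes counts scaled to a common library total after TMM scaling. Cdc7, the gene of the drug target, was at 23.0 and 21.5 CPM in the vehicle and 21.3 and 21.2 CPM in the treated libraries. In bulk tumors, fewer cells of a type and less RNA per cell cannot be told apart.

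All 10 genes were detected in all 4 libraries and passed the filter on low counts. Of these, 8 were higher in both TAK-931 libraries than in both vehicle libraries, where 30.0% of the 13669 genes tested were. Il1rap was the only gene below both vehicle libraries in both treated ones, where 32.7% of the genes tested were, and Il33 overlapped between the groups. The median fitted log2 fold change was 2.31 for the 10 genes (1.29 without TAK-931-1) and 0.02 for all genes tested (−0.02 without TAK-931-1). None of the 10 genes passed an adjusted p of 0.05 in edgeR, nor did any gene of the table (0% called), and the lowest adjusted p was 0.275. At an unadjusted p under 0.05, 5 of the 10 genes were higher, where 11.6% of all genes were, and 1, Il1rap, was lower, where 6.55% were. The call of Il1rap (unadjusted p 0.0484) was lost under both other scalings (0.0561 and 0.0602) and without either vehicle library (0.443 and 0.186). With 2 libraries against 2, an exact permutation test of a single gene cannot give a p below 0.333. TAK-931-2 taken alone lay above both vehicle libraries for the same 8 genes, where 42.3% of the genes tested did.

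**Figure D1:**
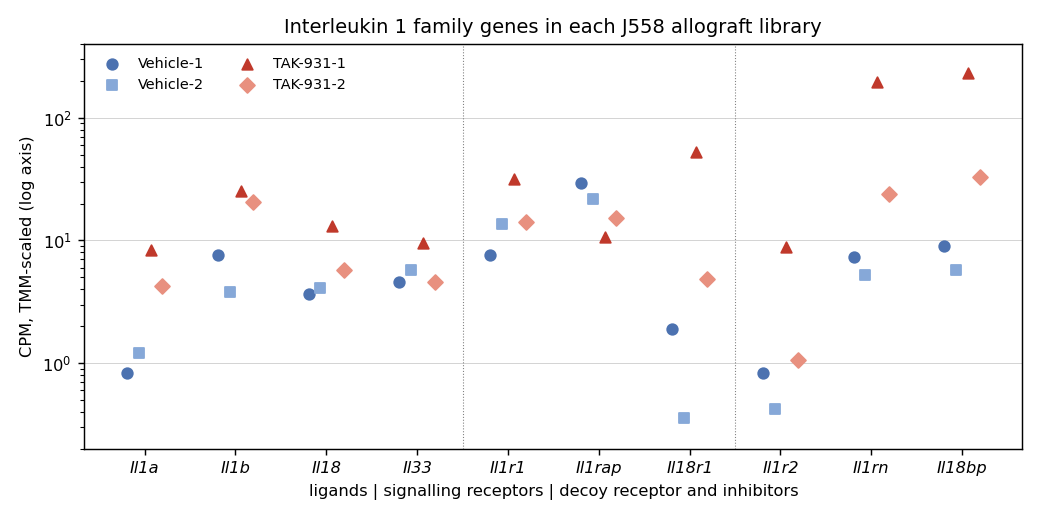
CPM (TMM-scaled, log axis) of the 10 interleukin 1 family genes in each library, ordered as ligands, signaling receptors, and the decoy receptor with the inhibitors. Red symbols lie above both blue ones for 8 genes, below them for Il1rap, and on both sides for Il33, where TAK-931-2 is at 4.55 CPM.

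The ligands Il1a and Il1b lie beside each other on chromosome 2 (mm10), at 129299610 to 129309972 and 129364580 to 129371120 on the minus strand. RefSeq promoter windows matched all 10 genes. The 250 bases before the start site of both ligands are shown because both act through the same receptor, followed by those of Il1rn, the antagonist of both ligands, and of Il1rap, the gene that was lower. The windows are from GRCm38.p6 (the build of mm10), at chr2:129309973-129310222 (minus strand), chr2:129371140-129371389 (minus strand), chr2:24336610-24336859 (plus strand) and chr16:26581455-26581704 (plus strand), each read 5′ to 3′ on the gene's strand. Capitals mark matches to the motifs searched.
Il1a: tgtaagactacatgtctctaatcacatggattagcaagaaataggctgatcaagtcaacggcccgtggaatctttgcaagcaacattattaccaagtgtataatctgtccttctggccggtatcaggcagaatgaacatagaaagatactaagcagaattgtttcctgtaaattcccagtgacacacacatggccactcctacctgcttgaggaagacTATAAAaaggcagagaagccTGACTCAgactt
Il1b: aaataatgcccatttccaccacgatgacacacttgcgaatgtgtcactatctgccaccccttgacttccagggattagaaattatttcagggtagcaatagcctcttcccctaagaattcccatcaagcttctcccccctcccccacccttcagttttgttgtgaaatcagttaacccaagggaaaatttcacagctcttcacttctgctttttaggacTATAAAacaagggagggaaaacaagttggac
Il1rn: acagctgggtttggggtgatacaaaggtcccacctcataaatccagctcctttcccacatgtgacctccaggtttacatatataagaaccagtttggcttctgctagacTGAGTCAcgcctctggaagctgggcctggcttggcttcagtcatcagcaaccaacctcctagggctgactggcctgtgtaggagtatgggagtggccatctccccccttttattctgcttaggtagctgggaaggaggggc
Il1rap: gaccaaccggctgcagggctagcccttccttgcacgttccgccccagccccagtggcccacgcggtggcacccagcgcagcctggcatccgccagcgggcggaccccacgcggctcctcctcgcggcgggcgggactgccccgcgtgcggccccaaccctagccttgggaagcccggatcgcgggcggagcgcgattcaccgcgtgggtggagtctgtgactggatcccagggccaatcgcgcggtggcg

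Both strands were searched for TATAAA (the core promoter box named after these letters), for TGANTCA (the AP-1 element), for AGGAAGT (PU.1) and, with letters not spelled out here, for NF-kappaB, interferon-stimulated response element and gamma-activated site motifs. No matches overlapped in the windows printed. A TATA box stood 32 to 27 bases before the start of Il1a and 31 to 26 bases before that of Il1b, and 12.4% of the 32851 RefSeq windows of this length hold this motif. An AP-1 match stood 12 to 6 bases before the start of Il1a and 141 to 135 bases before that of Il1rn, where 6.75% of windows hold one. The Il1rap window was rich in G and C (74.4%, against 42.4% for Il1a and 44.4% for Il1b) and held none of the motifs. The TATA box letters were in 4 of the 10 windows, the AP-1 letters in 2 and the gamma-activated site letters in 1, that of Il1r2 (7.02% of all windows). No window of the 10 genes held the NF-kappaB, response element or PU.1 letters, which 4.11%, 2.98% and 7.69% of all windows hold. The RefSeq start sites used for Il18 and Il1r2 lie 10668 and 1325 bases from the gene starts in the count tables, that of Il1r2 inside the gene model. These are letter matches and not measured binding sites.

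Il1a, which encodes the alarmin IL-1α, had 14 and 20 counts in the vehicle libraries and 158 and 73 in the treated ones, or 0.830, 1.20, 8.32 and 4.26 CPM. The treated libraries were 8.20-fold and 4.2-fold the vehicle mean, and the lower treated value stood well clear of the higher vehicle value. The means were 1.01 ± 0.261 CPM in vehicle and 6.29 ± 2.87 CPM in TAK-931 allografts (SD, n = 2). In edgeR its log2 fold change came to 2.62 (SE 0.67, adjusted p 0.275), or 2.06 without TAK-931-1. Of its 1974 exon bases, 222 overlap Gm14023 on the opposite strand, which had at most 11 counts in any library, and strand use in counting was not stated.

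Il1b, the inflammasome-processed ligand, showed the closest agreement between the treated tumors. It had 7.65 and 3.78 CPM in vehicle and 25.3 and 20.4 CPM in treated tumors. TAK-931-1 exceeded TAK-931-2 by only 1.24-fold, whereas the vehicle pair differed by 1.00 on the log2 scale. Its log2 fold change was 2.00 (SE 0.49, adjusted p by edgeR 0.275), with 2.6 without Vehicle-1, 1.56 without Vehicle-2, 1.83 without TAK-931-1 and 2.12 without TAK-931-2.

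Il18 (chromosome 9, 50565368 to 50581837), the second caspase-1 substrate of the family, was at 3.68 and 4.08 CPM in vehicle and at 13.2 and 5.72 CPM in TAK-931 libraries. The groups did not overlap, but TAK-931-2 was only 1.48-fold the vehicle mean against 3.4-fold in TAK-931-1. A log2 fold change of 1.28 was fitted (SE 0.60, adjusted p by edgeR 0.305), and 0.56 without TAK-931-1.

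Il33 (chromosome 19, 29925114 to 29960715), an alarmin stored in the nuclei of stromal and barrier cells, was the ligand that did not separate the groups. It had 4.63 and 5.75 CPM in vehicle and 9.59 and 4.55 CPM in TAK-931 libraries, so TAK-931-2 was the lowest of the 4. A log2 fold change of 0.45 (SE 0.58, adjusted p by edgeR 0.652) became −0.19 without TAK-931-1. Its own receptor chain Il1rl1 was placed in the same way, with 12 and 14 counts in vehicle, 146 in TAK-931-1 and 8 in TAK-931-2.

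Among the signaling receptors, the IL-18 receptor chain Il18r1 (chromosome 1, 40465552 to 40500854) had the largest fitted fold change of the 10 genes. It had 32 and 6 counts in vehicle (for the second, 95% exact Poisson interval 2.20 to 13.1, counting error only) and 991 and 83 in treated tumors. In CPM these were 1.90, 0.360, 52.2 and 4.84. Both treated libraries were above both vehicle libraries, and the treated pair differed by 10.8-fold. A log2 fold change of 4.65 (SE 1.53, adjusted p by edgeR 0.275) was 6.26 without Vehicle-1, 3.87 without Vehicle-2 and 2.09 without TAK-931-1.

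Il18rap, which encodes the partner chain of the IL-18 receptor and lies outside the 10 genes, followed the same order, at 2.96 and 1.02 CPM in vehicle and 73.0 and 10.3 CPM in TAK-931 libraries. For this gene the log2 fold change was 4.38 (SE 1.22, adjusted p by edgeR 0.275). The ratio of Il18r1 to Il18rap, taken per kilobase of gene model, stayed between 0.361 and 0.732 in the 4 libraries and overlapped between the groups.

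Il1r1 (chromosome 1, 40225080 to 40316177), the receptor through which both IL-1 ligands signal, was at 7.59 and 13.5 CPM in vehicle and at 31.6 and 14.1 CPM in TAK-931 libraries. TAK-931-2 lay just above Vehicle-2, so the groups were barely apart. The fitted difference was 1.11 on the log2 scale (SE 0.57, adjusted p by edgeR 0.329), or 0.41 without TAK-931-1.

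Il1rap (chromosome 16, 26581705 to 26725147), the accessory chain shared by the IL-1 and IL-33 receptors, moved the other way. It had 494 and 362 counts in the vehicle libraries, 201 in TAK-931-1 and 262 in TAK-931-2, or 29.3, 21.7, 10.6 and 15.3 CPM. The treated libraries were 0.415-fold and 0.600-fold the vehicle mean, with 25.5 ± 5.37 CPM in vehicle and 12.9 ± 3.32 CPM in TAK-931 allografts (SD, n = 2). The fitted difference was −0.98 on the log2 scale (SE 0.36, adjusted p by edgeR 0.275) and −0.74 without TAK-931-1. On the log2 scale, plasma cell and J558 markers stood at a median of −1.41 relative to vehicle in TAK-931-1 and 0.26 in TAK-931-2. In TAK-931-2, 5 of these 8 markers were above both vehicle libraries (42.3% of all genes). The other 3, Sdc1, Xbp1 and Mzb1, were below both vehicle libraries in both treated ones, a share near that of all genes tested (32.7%). Of the exon bases of Il1rap, 353 overlap Gm20319 on the opposite strand, which had 0 counts in all libraries. The part of tumor cell content in the Il1rap values was not tested.

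The decoy receptor Il1r2 (chromosome 1, 40084768 to 40125226) had the lowest mean CPM of the 10 genes in the treated group. It had 14 and 7 counts in vehicle, 168 in TAK-931-1 and 18 in TAK-931-2 (95% exact Poisson interval 10.7 to 28.4). The interval of TAK-931-2 contains the count of Vehicle-1, so a difference between these libraries was not detectable at this depth. A log2 fold change of 2.97 (SE 1.25, adjusted p by edgeR 0.286) was 0.74 without TAK-931-1.

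The soluble inhibitors had the highest mean levels per kilobase of the 10 genes in the treated group, although in TAK-931-2 Il1b (15.4 CPM per kilobase) exceeded Il1rn (8.87). Il1rn (chromosome 2, 24336860 to 24351491), the receptor antagonist, was at 7.35 and 5.27 CPM in vehicle and 196 and 23.9 CPM in treated tumors, or 31.1-fold and 3.78-fold the vehicle mean. Its log2 fold change was 4.12 (SE 1.13, adjusted p by edgeR 0.275) and 1.91 without TAK-931-1.

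Il18bp (chromosome 7, 102015077 to 102018155), the IL-18 binding protein, was at 9.01 and 5.69 CPM in vehicle and 232 and 32.7 CPM in treated tumors. The treated libraries were 31.5-fold and 4.45-fold the vehicle mean, close to the values of Il1rn. Its log2 fold change was 4.17 (SE 1.08, adjusted p by edgeR 0.275) and 2.15 without TAK-931-1.

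**Figure D2:**
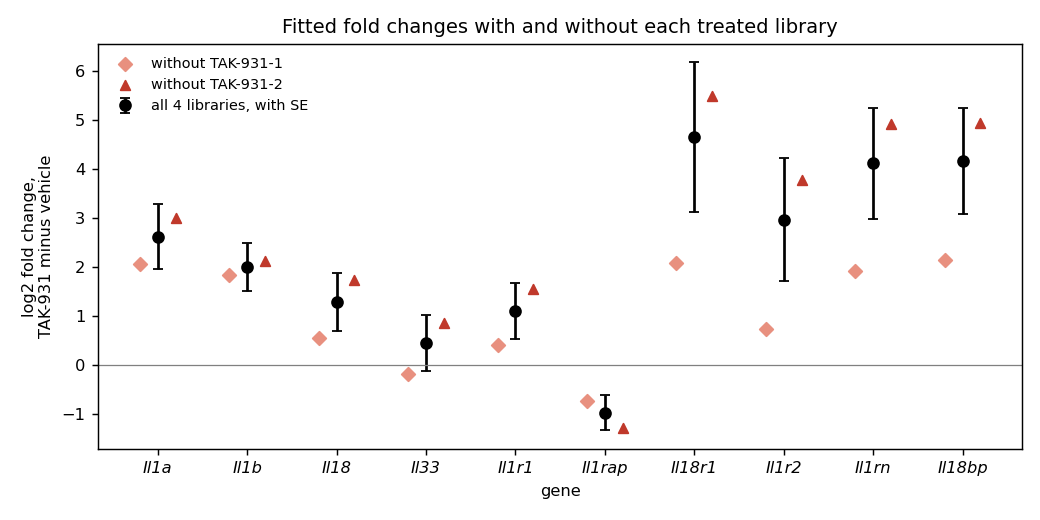
Fitted log2 fold changes (TAK-931 minus vehicle) of the 10 genes with all 4 libraries (black, bars are SE) and with either treated library left out. Il1b lies between 1.83 and 2.12 in the 3 fits, whereas Il18r1, Il1rn and Il18bp drop to about 2 without TAK-931-1, and Il33 changes sign.

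The size of the difference depended on the treated tumor by unequal amounts. TAK-931-1 was 10.8-fold above TAK-931-2 for Il18r1, 8.43-fold for Il1r2, 8.22-fold for Il1rn and 7.08-fold for Il18bp. It was 2.30-fold above for Il18, 2.24-fold for Il1r1, 2.11-fold for Il33, 1.95-fold for Il1a and 1.24-fold for Il1b. In TAK-931-2, the log2 ratios to the vehicle mean were between 1.90 and 2.34 for Il1a, Il1b, Il1rn, Il18bp and Il18r1, the 5 genes with an unadjusted p under 0.05 in the higher direction. They were 0.71 for Il1r2, 0.55 for Il18, 0.47 for Il1r1, −0.18 for Il33 and −0.72 for Il1rap. In TAK-931-1 the ratios of those 5 genes ranged from 2.21 for Il1b to 5.74 for Il18r1. Those 5 genes were picked by a p from the same 4 libraries, so their higher ratios follow in part from the selection.

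When a treated library was left out, edgeR estimated the spread from the vehicle pair alone and took the lone treated library to vary like it. Without TAK-931-1, 4 of the 10 genes (Il1a, Il1b, Il1rn and Il18bp) were called higher at an adjusted p of 0.05, where 12.6% of all genes were, and Il1rap was called lower, where 16.1% were. Without TAK-931-2, 8 were called higher, where 28.2% were, and Il1rap lower, where 29.8% were. DESeq2 on all 4 libraries called Il1a, Il1b, Il1rn, Il18r1 and Il18bp higher, where 9.78% of genes were called higher.

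**Figure D3:**
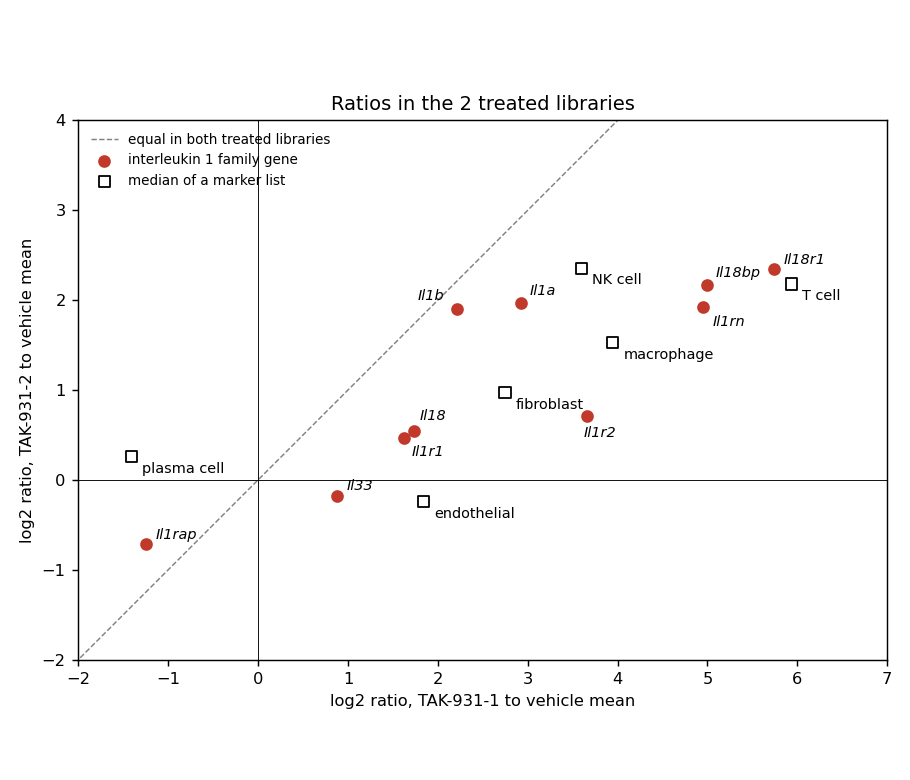
Log2 ratio of TAK-931-1 (horizontal) and of TAK-931-2 (vertical) to the mean of the vehicle pair for the 10 genes (red) and for the medians of marker lists (squares). Il1b, at 2.21 and 1.90, lies nearest to the line of equal ratios among the genes that were higher, and Il18r1 lies beside the T cell median at 5.94 and 2.18.

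Levels of different genes were compared per kilobase of gene model (CPM divided by the summed exon length). In vehicle tumors the order was Il18bp (mean 5.25), Il18 (4.48), Il1b (4.31), Il1rap (3.0), Il1rn (2.35), Il1r1 (2.10), Il33 (1.99), Il1a (0.514), Il1r2 (0.465) and Il18r1 (0.236). Every neighbor in this order overlapped in range over the libraries except Il33 and Il1a. In TAK-931 tumors the order began with Il18bp (94.3 ± 100.3), Il1rn (40.9 ± 45.3) and Il1b (17.2 ± 2.62) (SD, n = 2) and ended with Il1rap (1.52). Only Il1b and the next gene, Il18 (10.9 ± 6.08), did not overlap.

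Ratios within a library do not depend on library scaling, and 6 were formed after the values had been seen. The ratio of the antagonist Il1rn to the summed agonists Il1a and Il1b, per kilobase, was 0.442 and 0.568 in the vehicle libraries, 3.13 in TAK-931-1 and 0.505 in TAK-931-2. TAK-931-2 lay between the vehicle libraries, so antagonist exceeded agonist transcript in 1 of the 4 tumors only. The ratio of Il18bp to Il18 was 1.51 and 0.863 in vehicle and 10.9 and 3.54 in TAK-931 libraries, with no overlap between groups. The ratio of the accessory chain Il1rap to Il1r1 was 2.29 and 0.950 in vehicle and 0.199 and 0.645 in TAK-931 libraries, also without overlap. The ratio of the decoy Il1r2 to Il1r1 overlapped, at 0.410 and 0.116 in vehicle and 1.05 and 0.280 in TAK-931 libraries, as did that of Il1b to Il1a, at 13.7 and 4.69 against 4.53 and 7.13.

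**Figure D4:**
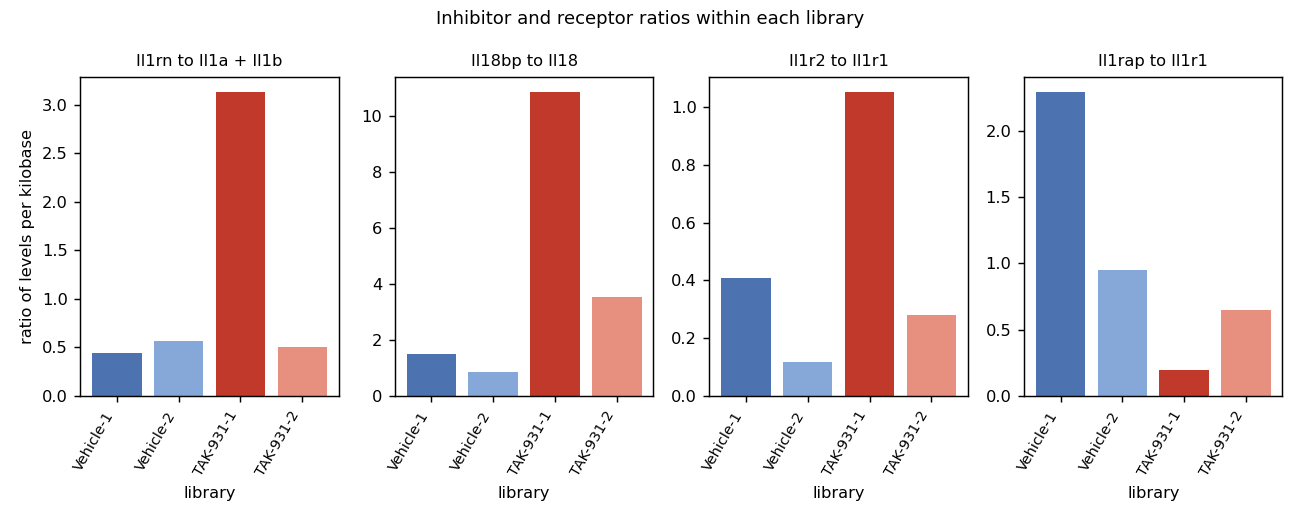
Ratios of levels per kilobase within each library (bars from 0, 1 bar per library, no error bars). Both treated bars exceed both vehicle bars for Il18bp to Il18 and lie below them for Il1rap to Il1r1, whereas TAK-931-2 (0.505) lies between the vehicle libraries for Il1rn to Il1a plus Il1b.

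Markers of several host cell types were higher in the treated tumors, to an extent that differed between types. The counts of markers above both vehicle libraries in both treated ones stand beside 30.0% of all genes tested. All 12 macrophage markers were highest in TAK-931-1, 11 of them lay above both vehicle libraries in both treated libraries, and their sum was 664 and 552 CPM in vehicle and 9587 and 1722 CPM in treated tumors. No macrophage marker was at 0 in any library. Per 1000 CPM of these summed markers, Il1rn was at 11.1 and 9.56 CPM in vehicle and 20.5 and 13.9 CPM in TAK-931 libraries, and Il18bp at 13.6 and 10.3 against 24.2 and 19.0. Both were higher in both treated libraries on this scale. Il1b was at 11.5 and 6.85 in vehicle and 2.64 and 11.9 in TAK-931 libraries, with overlap, and Il1a at 1.25 and 2.17 against 0.868 and 2.47, also with overlap. Il18r1 and Il1r2 overlapped as well, and Il1r1, Il1rap, Il18 and Il33 were lower in both treated libraries relative to the macrophage markers. Per 1000 CPM of summed T cell markers Il1rn and Il18bp overlapped, and both vehicle libraries lay between the treated ones, which were at 174.8 and 263.0 for Il1rn and at 206.3 and 360.8 for Il18bp.

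All 8 T cell markers lay above both vehicle libraries in both treated libraries, with sums of 31.1 and 21.1 CPM in vehicle and 1122 and 90.7 CPM in TAK-931 libraries, and none was at 0. Of the 7 NK cell markers 6 did so, with sums of 54.8 and 26.6 CPM in vehicle and 661 and 122 CPM in TAK-931 libraries, and Klrb1c was at 0 in Vehicle-2. Il18r1 stood at 61.1 and 17.0 CPM per 1000 CPM of summed T cell markers in vehicle and at 46.5 and 53.4 in TAK-931 libraries, with overlap. Of the T cell sums, Cd2 alone gave 14.9 and 10.9 CPM in vehicle and 114 and 17.5 CPM in TAK-931 libraries. The make-up of the sum thus differed between the groups, which limits all ratios to it.

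Of the 9 neutrophil markers in the tables, 5 were tested and 1, Csf3r, was above both vehicle libraries in both treated libraries. The sum was 7.12 and 9.05 CPM in vehicle and 130 and 17.9 CPM in TAK-931 libraries. Without Csf3r it was 2.02 and 4.74 CPM in vehicle and 15.5 and 2.86 CPM in TAK-931 libraries, so TAK-931-2 lay between the vehicle libraries. In TAK-931-2, S100a8, Cxcr2, Retnlg and Ngp were at 0, of which Retnlg and Ngp were at 0 in both vehicle libraries too, and S100a9 had 2 counts (16 and 18 in vehicle), whereas Csf3r had 258 counts (86 and 72 in vehicle), Mmp8 22 (2 and 18) and Ltf 21 (12 and 18).

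Fibroblast markers summed to 1894 and 2155 CPM in vehicle and 14867 and 5125 CPM in TAK-931 libraries, with 8 of 10 above in both and none at 0. Endothelial markers summed to 330 and 368 CPM in vehicle and 1114 and 334 CPM in TAK-931 libraries, with 3 of 9 above in both, a share near that of all genes (30.0%), and none at 0. All 7 dendritic cell markers were detected and 6 lay above in both, with sums of 27.6 and 23.2 CPM in vehicle and 301 and 64.6 CPM in TAK-931 libraries. Of the 7 mast cell markers 2 of the 4 tested did, with sums of 4.39 and 6.35 against 52.8 and 7.64 CPM, and Cpa3, Mcpt4 and Fcer1a were at 0 in TAK-931-2. Keratinocyte markers, a source of IL-1α in skin, summed to 2.25 and 38.1 CPM in vehicle and 16.1 and 2.16 CPM in TAK-931 libraries, with 0 of the 3 tested above in both and Krt5 and Krt14 at 0 in Vehicle-1 and TAK-931-2. Krt1 and Lor were at 0 in both treated libraries, and Ivl in all 4. The part of cell content in the values of the 10 genes was not tested.

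The machinery that processes and releases IL-1β and IL-18 was higher for most of its genes. Of 9 genes tested, 7 lay above both vehicle libraries in both treated ones, against 30.0% of all genes, and 5 had an unadjusted p under 0.05, all higher (11.6% of all genes), with 0 past the adjusted threshold in edgeR. The median log2 fold change was 2.42, with median log2 ratios of 3.12 and 0.87 in the treated libraries. Nlrp3, the inflammasome sensor, was at 1.54 and 0.839 CPM in vehicle and 15.2 and 5.6 CPM in TAK-931 libraries (log2 fold change 3.12, SE 0.78). Casp4, which senses cytosolic lipopolysaccharide, was at 4.09 and 2.34 against 32.0 and 11.9 CPM (2.77, SE 0.69). Mefv, which encodes pyrin, was at 1.25 and 3.0 against 17.8 and 6.77 CPM (2.53, SE 0.79). Nlrp1b overlapped between the groups, at 2.13 and 0.539 against 13.1 and 1.63 CPM.

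The adaptors and kinases below the receptors had a lower median difference. Of 12 genes tested, 6 lay above and 1 below both vehicle libraries in both treated ones, where 30.0% and 32.7% of all genes did. At an unadjusted p under 0.05, 1 was higher, where 11.6% of all genes were. The median log2 fold change was 0.30, and the median log2 ratios were 0.43 and 0.11 in the treated libraries. Irak2, a kinase of the IL-1 receptor complex and the gene past that unadjusted threshold, was at 11.3 and 17.8 CPM in vehicle and 41.4 and 36.7 CPM in TAK-931 libraries, so both treated tumors were alike (1.42, SE 0.33). Irak3, which encodes the inhibitory member IRAK-M, was at 2.85 and 1.62 against 23.3 and 3.56 CPM (2.58, SE 1.06). Tab2, an adaptor of the TAK1 kinase, was at 94.8 and 109 against 173 and 134 CPM (0.59, SE 0.25), and Peli1, a ubiquitin ligase of the pathway, at 47.1 and 46.2 against 68.1 and 53.2 CPM (0.38, SE 0.23).

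Genes that IL-1 is known to induce were higher in most cases, with 14 of 17 tested above both vehicle libraries in both treated ones (30.0% of all genes) and 7 higher at an unadjusted p under 0.05 (11.6% of all genes). The median log2 fold change was 1.72, with median log2 ratios of 2.25 and 0.97 in the treated libraries. Ptgs2, the inducible prostaglandin synthase, had 12 and 14 counts in vehicle and 360 and 149 in TAK-931 libraries (log2 fold change 4.14, SE 0.65, adjusted p by edgeR 0.275). Ccl2, a monocyte chemokine, was at 5.57 and 2.28 CPM against 88.5 and 37.9 CPM (4.01, SE 0.70). Cxcl2, a neutrophil chemokine, had 0 and 4 counts in vehicle and 82 and 12 counts in TAK-931 libraries (4.31, SE 1.69). Saa3, an acute-phase gene, was at 8.54 and 9.71 against 126 and 18.0 CPM (2.98, SE 1.00). Csf2 had 0 counts in both vehicle libraries and in TAK-931-2 and 4 in TAK-931-1, so a difference was not detectable at this depth.

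The partners of IL-18 in interferon-gamma production were all above both vehicle libraries in both treated ones among the 6 tested (30.0% of all genes), and 4 were higher at an unadjusted p under 0.05 (11.6% of all genes). The median log2 fold change was 3.71, with median log2 ratios of 4.76 and 2.81 in the treated libraries. Ifng had 32 and 2 counts in vehicle and 516 and 112 in TAK-931 libraries (4.05, SE 1.46). Il12b, which encodes a subunit of IL-12, had 2 and 0 counts in vehicle and 178 and 98 in TAK-931 libraries (fitted value 6.82, SE 1.19). Il12a, which encodes the other subunit, was too low to be tested, with 0 and 1 counts in vehicle and 0 in both treated libraries. Tbx21, which encodes the T-bet transcription factor, had 4 and 2 counts against 844 and 83 (7.05, SE 1.49). Stat4, which transmits the IL-12 signal, was at 1.07 and 2.52 against 32.6 and 4.49 CPM (3.37, SE 1.17). Fitted values of genes with so few vehicle counts depend on the prior count.

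Of the 11 other family members in the tables, 4 were tested and 2, Il18rap and Sigirr, lay above both vehicle libraries in both treated ones, where 30.0% of all genes did. The median log2 ratios of the 4 were 2.49 and 0.35 in the treated libraries. Sigirr, a regulatory receptor, was at 4.68 and 3.72 against 14.1 and 5.13 CPM (1.20, SE 0.66), and Il1rl2, the IL-36 receptor, at 0.593 and 1.32 against 3.48 and 1.23 CPM (1.29, SE 0.88). The IL-36 and related ligand genes were near or at the limit of detection, with 0 counts in both vehicle libraries for Il1f5, Il1f6, Il1f9 and Il1f10, and 8 and 2 counts of Il1f9 in the TAK-931 libraries. Il1f8 had 2 and 0 counts in vehicle and 2 and 15 in TAK-931 libraries, so it was highest in TAK-931-2, at 0.875 CPM. Il1rapl1 and Il1rapl2 had 0 counts in all 4 libraries. Where a gene had 0 counts, up to 3 remain possible, or 0.153 to 0.182 CPM before TMM scaling. Among the type 2 genes downstream of IL-33, Il9 and Il13 had 0 counts in all 4 libraries. Il4 had 0 and 1 counts in vehicle and 0 and 4 in TAK-931 libraries. Il5 had 4 and 6 against 2 and 8 counts, and Areg 6 and 0 against 1 and 0, all too low to be tested. The 1 gene tested, Gata3, had 0 and 2 counts in vehicle and 216 and 24 in TAK-931 libraries (fitted value 6.58, SE 1.77).

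**Figure D5:**
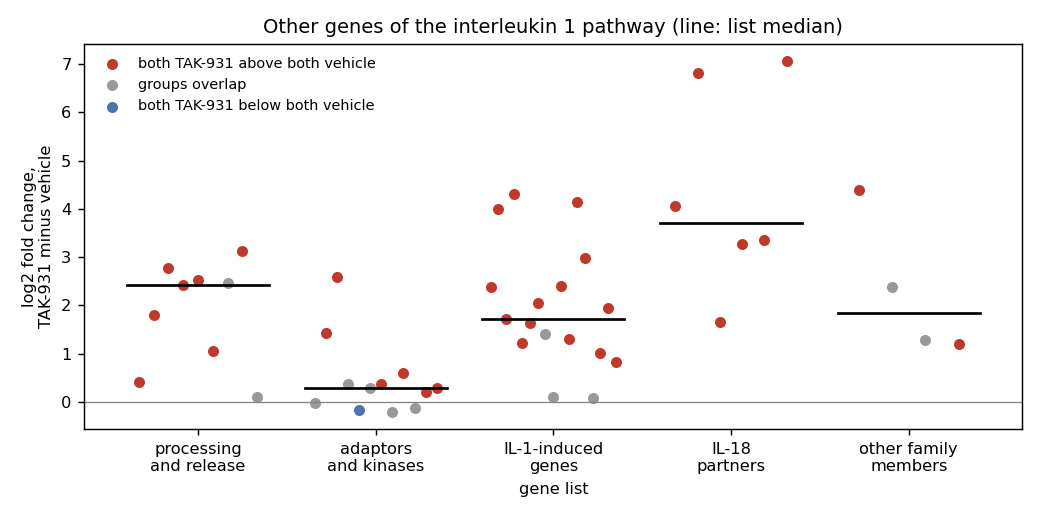
Fitted log2 fold changes (TAK-931 minus vehicle) of the tested genes of 5 pathway lists, 1 point per gene, with the list median as a line. The adaptors and kinases have a median of 0.30, with Irak3 (2.58) and Irak2 (1.42) farthest from 0, and the other 4 lists have medians from 1.72 to 3.71.

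For each of the 10 genes, the genes with the most similar profile were those at the smallest Euclidean distance between centered log2 CPM values over the 4 libraries, among tested genes with a mean of at least 1 CPM. The nearest to Il1a were Ikzf3 (distance 0.091) and Fcrlb (0.224), and to Il1b Lif (0.302) and Slc17a9 (0.304). AF251705 (0.143) and Fam78a (0.195) were nearest to Il1rn, and Fmnl1 (0.127) and Batf (0.151) to Il18bp. Il18r1 had Cd5 (0.280) and Nkg7 (0.496), both also among the T and NK cell markers. Il1r1 had Dnah8 (0.066) and Sod3 (0.095), Il1r2 had Tmem218 (0.155) and Cd300a (0.168), and Il1rap had Tmco6 (0.076) and Zc3h8 (0.091). Il18 had Itsn1 (0.029) and Slc16a3 (0.031), and Il33 had Daam1 (0.051) and Cpt1c (0.071). With 4 libraries, this is a description of profiles and not a test.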

How the data were processed

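The authors deposited 1 table per library of raw counts per gene. Per the submitters' processing notes, reads were aligned with STAR 2.6.1c to mm10 and counted with featureCounts, with uniquely placed reads according to the column names. The annotation and strand setting are not given in the sources used here. A second deposited column, of another kind, gives exon length summed per gene, in bases, and was used for levels per kilobase. Of counts up to 20, only 17.9% to 23.9% were odd, so both mates of a pair appear to be counted and intervals and floors are too narrow. Genes were filtered with filterByExpr (minimum count of 10), which left 13669 genes, scaled by TMM and tested with the robust quasi-likelihood test of edgeR 4.0.16 (R 4.3.3), two-sided, with treatment as the only term and Benjamini-Hochberg adjustment over all genes tested. The SE is the log2 fold change divided by the square root of F. The test was checked on simulated counts before use. Log2 ratios between libraries used a prior count of 2. Each group had 2 libraries, which the design text calls independent.

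Alternatives were scaling by median-of-ratios factors or by library size, a minimum of 10 counts in each library, no filter, halved counts, a replicate block, each library left out, DESeq2 1.42.0, limma-voom (limma 3.58.1) and a prior count of 0.5. The genes examined and the lists, of pathway genes and of cell markers, were chosen with earlier results of these data known. Genes were named by rule: the 10 members, up to 4 tested genes of each pathway list with the largest fitted change in size, genes at 0 in a whole group, the 2 nearest profiles per member, and Cdc7. Marker genes at 0 in some libraries, Cd2, Il4, Il5 and Areg were named after their values were seen. Promoter windows came from RefSeq (GRCm38.p6).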

Additional observations from a re-analysis of the deposited data

How the results depend on the processing

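Neither a family member nor any other gene was called at an adjusted p of 0.05 in edgeR under the 2 other scalings and 2 other filters, with halved counts, or in limma-voom. DESeq2 called 5 members and 1411 genes. The replicate block called 2 members, Il18r1 and Il18bp (adjusted p by edgeR 0.039 and 0.048), and 144 genes. Deviations from the group mean correlated at 0.004 between libraries sharing a number, and nothing in the labels says that a number marks a shared batch, so the block was not used as the main fit. The cause of these differences was not tested. With each library left out in turn, the number of members called ranged from 0 to 9 and of all genes from 0 to 8424, with 0 members without either vehicle library, 5 without TAK-931-1 and 9 without TAK-931-2. At an unadjusted p under 0.05 there were 6 members and 2475 of all 13669 genes in the main fit. In limma-voom there were 3 members and 1860 of the 13669 genes. Il1rap also missed an unadjusted p of 0.05 with a minimum of 10 counts in each library (0.0550), halved counts (0.0505) and the block (0.0847). The median log2 fold change of the members, 2.31, was between 1.29 (without TAK-931-1) and 2.57 (without TAK-931-2) with a library left out, and between 1.72 (a minimum of 10 counts in each library) and 2.36 in the other alternatives. The number of members above both vehicle libraries, 8, was 8 under both other scalings and 6 of the 8 members with at least 10 counts everywhere. It was between 8 and 9 with a library left out, an alternative chosen after seeing the data. Leaving out a library cannot lower this count, so that alternative could not have weakened the result. Of the single-gene fold changes, that of Il33 turned from 0.45 to −0.19 without TAK-931-1 (0.86 without TAK-931-2), and the others kept their sign in each alternative that gave a value. Il1r2 had none with halved counts or the minimum of 10 counts, and Il18r1 none with the latter. Low vehicle counts of Il18r1, Il1r2 and Il1a limit the precision of their ratios.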
